A study of Mus musculus with 13 samples.

Results

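The genes described here are p53 itself (Trp53) and 9 genes of its pathway that p53 is known to switch on: Mdm2, Cdkn1a, Ccng1, Bax, Phlda3, Eda2r, Sesn1, Bbc3 and Zmat3. They were taken from a list of symbols, and all 10 were found among the 22656 genes of the deposited table. RNA was measured in B16F10-TR-shApoe cells, a derivative of the mouse melanoma line B16F10 that carries a hairpin against its own Apoe. The cells had been injected into the tail vein of mice with the human APOE2 or APOE3 allele knocked in, and 15 days later living cells with GFP and without CD45 were sorted from digested lungs. There were 8 libraries from APOE2 hosts and 5 from APOE3 hosts. Every library shares the tumour line and the hairpin, and the allele of the host is the only difference between the groups that the labels name. The labels give no age, sex or background strain of the mice, and they count 8 and 5 mice.

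p53 is a transcription factor that cells keep at a low level until DNA damage, oncogene activity or nucleolar stress stabilises the protein. It then binds response elements at its target genes, some of which halt the cell cycle, some of which start apoptosis, and some of which, such as Mdm2, switch p53 off again. Much of this control acts on the p53 protein, so the mRNA of Trp53 does not measure p53 activity, and the mRNAs of its targets are often read in its place.

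A p53 response element is a pair of decamers, each a run of 10 bases with a fixed core. The decamer of the p53 consensus, which is its own reverse complement and so reads alike on both strands, was searched for by exact match in the RefSeq promoter windows on GRCm38, from 250 bases before to 50 after a start site. Of the 10 genes 9 had a window, and Zmat3 did not. A decamer was found for 6 of the 9 genes, against 9.55% of all 27025 genes with a window. Only Cdkn1a had a pair of exact decamers with a spacer of at most 13 bases, against 0.0740% of all genes. The genes were listed as known p53 targets, so these matches describe them and are no result of the tumours. The following stretches show the decamers in capitals, each read 5′ to 3′ on the strand of its gene, because Cdkn1a, Mdm2 and Sesn1 among these genes are those with the larger differences between hosts described further on.
Cdkn1a, chr17:29090886-29090957, plus strand, decamers starting 73 and 51 bases before the start site: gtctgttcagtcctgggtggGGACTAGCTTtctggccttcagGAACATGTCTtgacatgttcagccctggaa
Mdm2, chr10:117710915-117710964, minus strand, decamer 186 bases before the start site: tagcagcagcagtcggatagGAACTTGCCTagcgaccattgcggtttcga
Sesn1, chr10:41887246-41887295, plus strand, decamer 173 bases before an internal start site: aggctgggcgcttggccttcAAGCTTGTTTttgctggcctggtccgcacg
Ccng1, chr11:40755442-40755491, minus strand, decamer 185 bases before the start site: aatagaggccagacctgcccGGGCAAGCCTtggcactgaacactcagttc
Bax, chr7:45467070-45467119, minus strand, decamer 201 bases before the start site: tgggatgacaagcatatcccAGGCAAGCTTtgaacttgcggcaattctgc
Trp53, chr11:69580264-69580313, plus strand, decamer 75 bases before the start site: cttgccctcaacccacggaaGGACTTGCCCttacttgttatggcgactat
In the GENCODE M21 annotation none of the 6 stretches lay in an exon. The Sesn1 stretch lay inside an intron of a longer Sesn1 transcript, and the Bax stretch lay inside Gm45808, whose exons also overlap those of Bax. The windows of Phlda3, Bbc3 and Eda2r held no exact decamer, which says only that these letters were not in those windows. The 10 bases directly after the second Cdkn1a decamer are close to the consensus but no exact match, so they were not marked. Which of these decamers p53 binds was not tested.

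Values are normalised counts, that is reads of a gene divided by a size factor of the library. Between 7080308 and 13039989 reads stood behind a library. Since the reads carry no molecular identifiers, counting limits cover sampling of reads only. All 10 melanocyte markers examined, such as Dct and Tyr, passed the filter on low values, and their summed level was 310749 to 469478 normalised counts in APOE2 hosts and 227045 to 342052 in APOE3 hosts. Dct was the largest part of this sum, with 176606 to 323071 in APOE2 hosts and 101484 to 208301 in APOE3 hosts. Of the 10 melanocyte markers, 0 had a limma adjusted p-value under 0.05, against 0.790% of all genes tested. RNA of other lung cells was present, with higher median marker sums in APOE3 hosts and ranges that overlapped. The 15 lung epithelium markers summed to 648 to 4160 against 3479 to 21844, APOE2 first, the 14 endothelial markers to 803 to 1249 and 1103 to 2467, the 13 fibroblast and smooth muscle markers to 155 to 489 and 313 to 1971, and the 21 leukocyte markers to 517 to 2564 and 2177 to 12400. Lyz2, a gene that alveolar type 2 cells of the lung epithelium also express, made up 35.9% to 90.0% of the leukocyte sum in APOE2 hosts and 69.2% to 95.9% in APOE3 hosts. The other 20 leukocyte markers summed to 217 to 791 and 444 to 671, and Ptprc, which encodes the CD45 that the sort selected against, had 1.01 to 16.4 and 4.21 to 38.5. At a limma adjusted p-value under 0.05, 6 of the 11 tested epithelial and 2 of the 14 endothelial markers were lower in APOE2 hosts. So were 1 of the 8 fibroblast and smooth muscle and 2 of the 8 leukocyte markers (Lyz2 and Cd74). Of these tested markers 0 were higher. Of all genes tested, 0.379% were lower and 0.411% higher at that threshold. Defining markers of T and B cells (Cd3e, Cd4, Cd8a, Ms4a1, Cd79a) and the epithelial gene Epcam had 0 reads in at least 7 of the 13 libraries. APOE3 replicate 4 had the highest sum of the epithelial, endothelial and fibroblast markers, and APOE2 replicate 3 the lowest of the epithelial and fibroblast markers.

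The question put to the 10 genes was whether their mRNA in the metastatic cells differed with the APOE allele of the host. None of them passed the test. A mean of 10 normalised counts over the 13 libraries was required, which 9 of the genes reached. Of these, 0 had a limma adjusted p-value under 0.05, where 98 of all 12403 genes tested did (0.790%), 51 of them higher (0.411%) and 47 lower (0.379%) in APOE2. edgeR and DESeq2 on the recovered reads also called 0 of the 9, and 1.11% and 2.51% of all genes. The adjusted p-values ran from 0.193 to 0.704. At an unadjusted limma p-value under 0.05 there were 4 of 9, against 14.2% of all genes. That count was 2 without APOE2 replicate 2, 1 (Zmat3) without APOE3 replicate 4, and 3 or 4 without any other single library. Of the 4, Cdkn1a, Zmat3 and Mdm2 had lower mean values in APOE2 hosts (6.71% of all genes) and Sesn1 a higher one (7.51%). The log2 difference, APOE2 minus APOE3 on the log2(normalised count + 1) scale, was below 0 for 7 of the 9 genes and above 0 for Trp53 and Sesn1. Its median was −0.19 over the 9 genes and 0.00037 over all genes tested. The APOE2 and APOE3 ranges overlapped for every one of the 9 genes, while for 0.984% of all genes they did not. In a tissue sort such as this, a smaller amount of an mRNA can mean fewer cells of a type or less of it in each cell, and the 2 cannot be told apart.

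**Figure D1:**
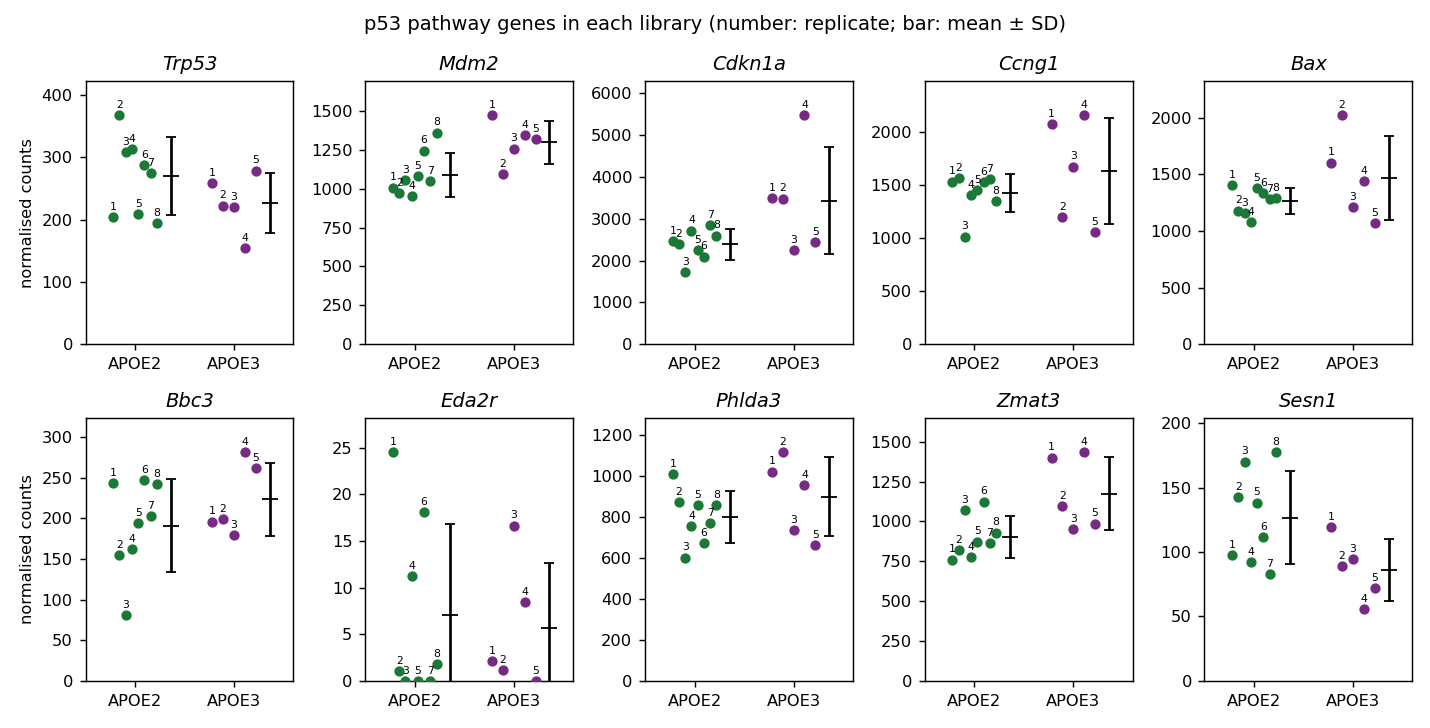
Normalised counts of the 10 genes (vertical axes, each from 0) in APOE2 and APOE3 libraries, 1 point per library numbered by replicate, with the mean and SD as a bar; the lower end of the Eda2r bars is outside the axis. The groups overlap for every gene, and APOE3 replicate 4 stands highest for Cdkn1a at 5469.

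Trp53 (chr11:69580359-69591873) encodes p53. It had 195 to 367 normalised counts in APOE2 hosts with a median of 282, and 259, 223, 220, 154 and 279 in APOE3 replicates 1 to 5. The lowest library was APOE3 replicate 4, the library with the highest Cdkn1a, and 4 APOE2 libraries lay above all APOE3 libraries. The mean was 270 ± 62.0 (SD, n = 8) against 227 ± 47.6 (SD, n = 5). The log2 difference of 0.24 had a 95% interval from −0.15 to 0.64 and a limma adjusted p of 0.598, and without APOE3 replicate 4 it was 0.11. Between 164 and 364 reads per library stood behind these values, so counting alone gives a coefficient of variation of 5.91% in APOE2, against 23.0% observed.

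Mdm2 and Ccng1 act back on p53. Mdm2 (chr10:117688875-117710758) is the ubiquitin ligase that marks p53 for degradation, and its second promoter is a classical p53 target. The stretch shown above lay upstream of the annotated start of the gene and was not matched to the second promoter. Mdm2 had 954 to 1361 normalised counts in APOE2 hosts with a median of 1053, and 1472, 1096, 1258, 1346 and 1318 in APOE3 replicates 1 to 5. In 6 of 8 APOE2 libraries it was below every APOE3 library, while replicates 6 and 8 lay within the APOE3 range. The means were 1091 ± 141 (SD, n = 8) and 1298 ± 137 (SD, n = 5), a log2 difference of −0.25 with a 95% interval from −0.49 to −0.017. The limma p was 0.0365 before and 0.316 after adjustment, and the unadjusted p stayed under 0.05 in 16 of 24 alternatives, 6 of the 13 fits without 1 library among them.

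Ccng1 (chr11:40748552-40755311) encodes cyclin G1, which brings a phosphatase to Mdm2. It had 1015 to 1565 normalised counts in APOE2 hosts with a median of 1490, and 2072, 1195, 1673, 2157 and 1057 in APOE3 replicates 1 to 5. The APOE3 libraries spanned the whole APOE2 range, apart from APOE2 replicate 3 just below them. The coefficient of variation was 30.5% in APOE3 and 12.9% in APOE2, with about 2.5% from counting in each group. The log2 difference was −0.15, with a 95% interval from −0.47 to 0.17 and a limma adjusted p of 0.704. Leaving out APOE3 replicate 4 brought it to −0.034, the value closest to 0 among the 13 fits without 1 library.

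Cdkn1a (chr17:29090976-29100727) encodes p21, which inhibits cyclin-dependent kinases and is the main arm by which p53 halts the cell cycle. It had 1719 to 2845 normalised counts in APOE2 hosts with a median of 2426. In APOE3 replicates 1 to 5 it had 3488, 3478, 2256, 5469 and 2443. On the log2 scale each of the 8 APOE2 libraries was under the mean of the APOE3 group. APOE3 replicates 1, 2 and 4 lay above every APOE2 library, while APOE3 replicates 3 and 5 fell among them. The means were 2384 ± 362 (SD, n = 8) and 3427 ± 1276 (SD, n = 5).

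The log2 difference of Cdkn1a was −0.47, or 0.724-fold, with a 95% interval from −0.80 to −0.13. Its limma p was 0.00880 before and 0.193 after adjustment. The adjusted p was 0.149 by edgeR and 0.0690 by DESeq2 on the recovered reads, the smallest value any of the 9 genes reached in any alternative. APOE3 replicate 4, with the highest Cdkn1a, also had the highest epithelial, endothelial and fibroblast marker sums. APOE2 replicate 3, with the lowest Cdkn1a, had the lowest epithelial sum. Without APOE3 replicate 4 the log2 difference was −0.28 (limma adjusted p = 0.415). APOE3 replicate 1 had 3488 normalised counts of Cdkn1a beside an epithelial sum of 3479, within the APOE2 range of that sum, and APOE3 replicate 3 had 2256 beside 13162. The part of other cells in the Cdkn1a difference was not tested. Exons of AC167363.2 overlap Cdkn1a on the opposite strand, and the use of strand in the authors' counting is not given in the sources used here.

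Bax, Bbc3 and Eda2r belong to the apoptotic arm. Bax (chr7:45461697-45466898) permeabilises the outer mitochondrial membrane. It had 1078 to 1405 normalised counts in APOE2 hosts with a median of 1285, and 1605, 2023, 1211, 1440 and 1069 in APOE3 replicates 1 to 5. APOE3 replicates 1, 2 and 4 lay above all APOE2 libraries and replicate 5 below all of them, with APOE2 covering a narrow band in between. The coefficient of variation was 9.01% in APOE2 and 25.3% in APOE3. Its log2 difference, −0.19, had a 95% interval from −0.46 to 0.082 with a limma adjusted p of 0.538, and without APOE3 replicate 2 it was −0.064. Exons of Gm45808 overlap Bax on the same strand, so how reads there were shared out between the 2 genes is uncertain.

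Bbc3 (chr7:16308393-16318205) encodes PUMA, which sets Bax free by binding its inhibitors. It had 80.9 to 247 normalised counts in APOE2 hosts with a median of 199, and 196, 199, 179, 281 and 261 in APOE3 replicates 1 to 5. The lowest value belonged to APOE2 replicate 3, and the other APOE2 libraries ran from below the APOE3 range into its upper part. Its log2 difference was −0.28 with a 95% interval from −0.77 to 0.21 (limma adjusted p = 0.632), and −0.11 without APOE2 replicate 3.

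Eda2r (chrX:97333840-97377216) encodes a receptor of the tumour necrosis factor family that binds ectodysplasin A2. It was below the filter, with a mean of 6.54 normalised counts over the 13 libraries. APOE2 replicates 1 to 8 had 36, 1, 0, 11, 0, 16, 0 and 2 reads, and APOE3 replicates 1 to 5 had 2, 1, 16, 9 and 0 reads. A count of 0 allows up to 3 reads, so the 4 libraries at 0 are not distinguishable from those with 1 or 2. Libraries with more than 8 reads occurred in both groups. Averaged on the linear scale, APOE2 libraries had 7.09 ± 9.69 normalised counts and APOE3 libraries 5.67 ± 6.96 (SD), while the log2 difference was −0.14, so that the sign depended on the scale. At this depth no difference between hosts was detectable.

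Phlda3, Zmat3 and Sesn1 restrain growth signalling or act on RNA. Phlda3 (chr1:135766119-135769136) encodes a small membrane-binding protein that holds back the kinase Akt. It had 603 to 1011 normalised counts in APOE2 hosts with a median of 816, and 1023, 1119, 737, 955 and 663 in APOE3 replicates 1 to 5. APOE3 replicates 1 and 2 lay above all APOE2 libraries and the other 3 within their range. Between hosts the log2 difference was −0.16, with a 95% interval from −0.45 to 0.14 and a limma adjusted p of 0.667, and it was −0.070 without APOE3 replicate 2.

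Zmat3 (chr3:32334792-32366014) encodes a zinc-finger protein that binds RNA and affects splicing. It had 761 to 1125 normalised counts in APOE2 hosts with a median of 869, and 1401, 1096, 953, 1436 and 987 in APOE3 replicates 1 to 5. In 6 of 8 APOE2 libraries it was below every APOE3 library, with replicates 3 and 6 among the lower APOE3 values. The means were 903 ± 132 (SD, n = 8) and 1175 ± 229 (SD, n = 5), a log2 difference of −0.37 with a 95% interval from −0.64 to −0.098. The limma p was 0.00984 before and 0.202 after adjustment. The unadjusted p stayed under 0.05 in all 24 alternatives, and the adjusted p in none, its lowest value being 0.125 by DESeq2. The 2 highest libraries for Zmat3, APOE3 replicates 4 and 1, had epithelial sums of 21844 and 3479, the highest and the lowest of the APOE3 group.

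Sesn1 (chr10:41809935-41908424) encodes a sestrin, which restrains the growth kinase mTORC1. It was the only pathway target of the 9 tested genes with a higher mean in APOE2 hosts. It had 82.8 to 178 normalised counts in APOE2 hosts with a median of 125, and 119, 89.3, 94.7, 55.5 and 71.7 in APOE3 replicates 1 to 5. In 4 APOE2 libraries it was above all APOE3 libraries, and APOE3 replicates 4 and 5 lay below all APOE2 libraries. The means were 127 ± 35.9 (SD, n = 8) and 86.1 ± 24.0 (SD, n = 5), a log2 difference of 0.55, or 1.46-fold, with a 95% interval from 0.014 to 1.08. The limma p was 0.0448 before and 0.342 after adjustment, and the unadjusted p stayed under 0.05 in 15 of 24 alternatives, 7 of the 13 fits without 1 library among them. Between 59 and 194 reads per library stood behind these values, with a counting coefficient of variation of 11.1% in APOE3 against 27.9% observed. Its relative Sesn2, named here after its value was seen, had a mean of 135 normalised counts in APOE2 and 214 in APOE3, a log2 difference of −0.58, of opposite sign. By limma the adjusted p of Sesn2 was 0.327.

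**Figure D2:**
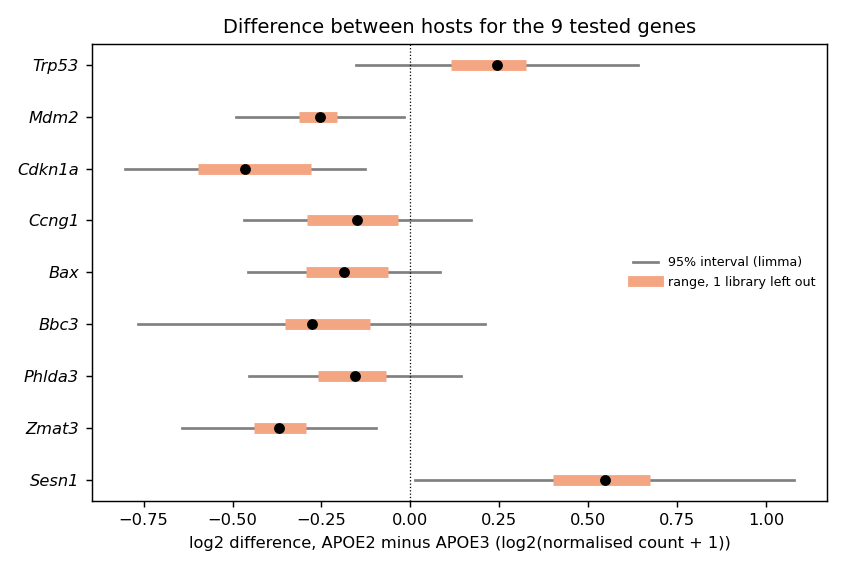
Log2 difference (APOE2 minus APOE3, horizontal axis) of the 9 tested genes, with the limma 95% interval as a grey line and the range over the 13 fits without 1 library as an orange band. The intervals of Mdm2, Cdkn1a, Zmat3 and Sesn1 lie on 1 side of 0, and 0 of the 9 genes passed the adjusted threshold.

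How the genes varied among themselves was examined after removing the mean of each genotype. Over 13 libraries the 36 pairs among the 9 tested genes had a median Pearson correlation of 0.16, from −0.50 to 0.77. Against single genes, the median correlation over all other tested genes lay between −0.019 and 0.018 for each of the 9, and its 95th percentile between 0.48 and 0.62. Among the 28 pairs of targets 21 were above 0, with a median of 0.27, while Trp53 was below 0 with 7 of the 8 targets, with a median of −0.35. Of these 8 pairs, 0 had an unadjusted permutation p under 0.05, and the 5th percentile of Trp53 with all genes was −0.49. Without APOE3 replicate 4 and APOE2 replicate 8, farthest from the median for Trp53, its r with Cdkn1a went from −0.46 to −0.11. With Mdm2 it went from −0.30 to 0.053, and with Bax from −0.37 to −0.47. All values of a library share its size factor, so these correlations are not free of a common scale.

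The closest pair was Bax and Phlda3, with r = 0.77 (permutation p = 0.00557, adjusted over 36 pairs 0.201) and rho = 0.81 (permutation p = 0.00435, adjusted 0.157). Without APOE3 replicates 2 and 5, the libraries farthest from the median for Bax, r was 0.62. Cdkn1a and Phlda3 had r = 0.64 (permutation p = 0.0416, adjusted 0.457) and rho = 0.43 (permutation p = 0.188, adjusted 0.714), and r = 0.72 without APOE3 replicates 3 and 4. Mdm2 and Zmat3 had r = 0.57 (permutation p = 0.0456, adjusted 0.457) and rho = 0.64 (permutation p = 0.0254, adjusted 0.457), and r = 0.56 without APOE2 replicates 6 and 8. By the adjusted values 0 of the 36 pairs passed 0.05. At an unadjusted permutation p under 0.05 there were 3.

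**Figure D3:**
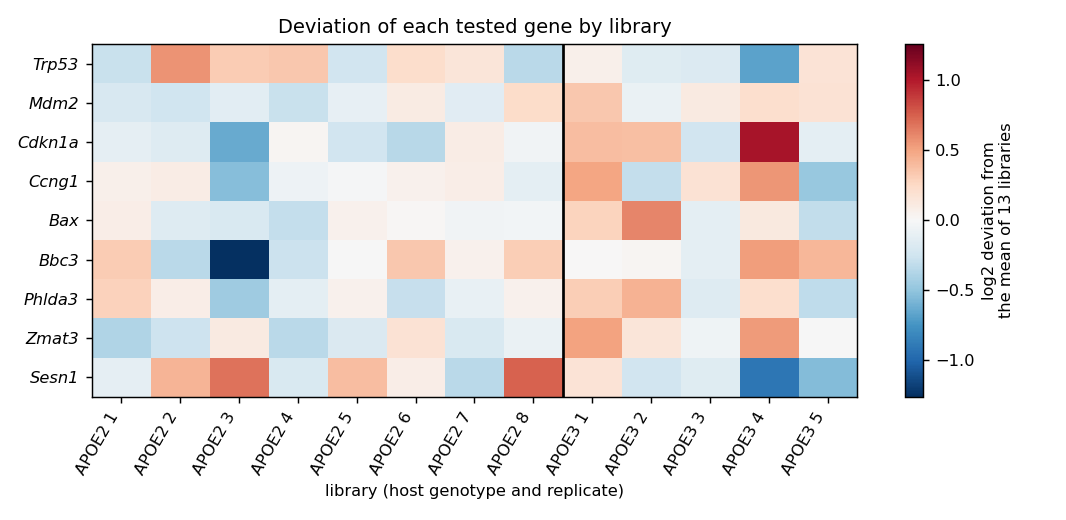
Log2 deviation of each of the 9 tested genes (rows) from its mean over the 13 libraries (columns, APOE2 to the left of the line and APOE3 to the right), red above and blue below the mean. In APOE3 replicate 4, Cdkn1a and Zmat3 are above their means while Trp53 and Sesn1 are below theirs, and in APOE2 replicate 3 Bbc3, at 80.9 normalised counts, is far below its mean.

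The genes outside the list that followed it most closely were ranked by their correlation with the mean of the standardised values of the 9 genes, over 13 libraries and without genotype means. Of 12394 genes the highest were Sms (spermine synthase, r = 0.88), 1700010I14Rik (0.87), Aqp11 (an aquaporin, 0.87), Rtraf (0.86, whose exons Nid2 overlaps on the opposite strand) and Carmil3 (0.84). They are the top of a ranking over many genes and carry no test. Their limma adjusted p-values for host genotype ran from 0.306 to 0.906. In the mean of the standardised values of the 9 genes, with genotype means removed, the highest library was APOE3 replicate 1 (0.79) and the lowest APOE3 replicate 5 (−0.70). Each gene was scaled to its own SD before averaging.

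The rest of the p53 pathway was described by 3 further lists. Of 34 other p53 targets 30 passed the filter, and 0 of them had a limma adjusted p-value under 0.05. At an unadjusted limma p-value under 0.05 there were 5 of the 30, against 14.2% of all genes. The log2 difference was below 0 for 16 of the 30, or 53.3% against 49.9% of all genes, with a median of −0.042. Fas, Perp, Pmaip1 and Gls2, genes of the apoptotic and metabolic arms, were below the filter with at most 26 reads in any library.

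Dram1, a lysosomal membrane protein that promotes autophagy, had the smallest p-value of these. It had 1.01 to 45.7 normalised counts in APOE2 hosts with a median of 15.6, and 40.0, 19.2, 135, 127 and 162 in APOE3 replicates 1 to 5. Dram1 had 1 to 53 reads in APOE2 libraries, with 1 read in APOE2 replicate 2, and 17 to 140 in APOE3 libraries. Its log2 difference of −2.23 ± 0.65 (SE) had a limma adjusted p of 0.109, and its edgeR adjusted p was 0.0505. Sfn encodes 14-3-3 sigma, which holds cells in G2 and is made mainly in epithelia. It had 15.8 to 51.2 normalised counts in APOE2 hosts with a median of 26.7, and 50.6, 63.3, 38.5, 119 and 70.6 in APOE3 replicates 1 to 5, and its log2 difference of −1.21 ± 0.38 (SE) had 0.145 as limma adjusted p. DESeq2 on the recovered reads called both lower in APOE2 hosts (adjusted p = 0.00762 for Dram1 and 0.0368 for Sfn), where it called 2.51% of the genes it tested. For both genes the 3 highest libraries were APOE3 libraries with epithelial sums of at least 8078. APOE3 replicate 3, with an epithelial sum of 13162, had the lowest Sfn of the APOE3 group at 38.5. The lowest Dram1 of that group, 19.2, was in APOE3 replicate 2, with an epithelial sum of 8078. Whether RNA of other lung cells took part in these values was not tested.

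Rps27l and Tnfrsf10b had log2 differences above 0. Rps27l encodes a protein much like the ribosomal protein Rps27 and averaged 5790 ± 895 normalised counts in the 8 APOE2 libraries and 4451 ± 1305 in the 5 APOE3 libraries (SD), a log2 difference of 0.42 with a limma adjusted p of 0.211. Tnfrsf10b, the death receptor for TRAIL, had 111 ± 24.4 and 73.1 ± 39.0 normalised counts (SD), a log2 difference of 0.82 with a limma adjusted p of 0.299. APOE3 replicate 2 was the lowest library for both genes, at 2713 and 15.8 normalised counts.

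**Figure D4:**
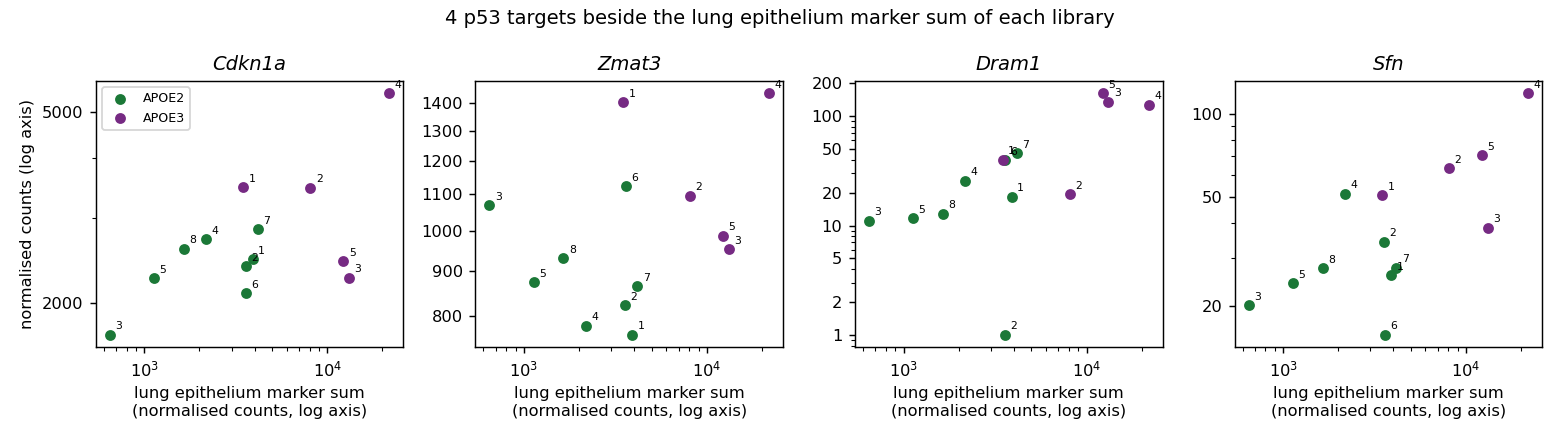
Normalised counts of Cdkn1a, Zmat3, Dram1 and Sfn (vertical, log axes) against the summed normalised counts of 15 lung epithelium markers (horizontal, log axis), 1 point per library numbered by replicate. APOE3 replicate 4, at 21844 on the horizontal axis, is highest for Cdkn1a, Zmat3 and Sfn, while APOE3 replicate 1, at 3479, lies near the APOE2 libraries on that axis and high for Cdkn1a and Zmat3.

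Regulators of p53 were the second list. The filter left 16 of 17 such genes. By limma 0 of them had a limma adjusted p-value under 0.05 and 1 an unadjusted one, against 14.2% of all genes. The median log2 difference was 0.060. That gene was Rpl5, a ribosomal protein that binds and blocks Mdm2 when ribosome assembly is disturbed. It had 1711 to 2664 normalised counts in APOE2 hosts with a median of 2237, and 2138, 919, 1473, 1554 and 1711 in APOE3 replicates 1 to 5. Its log2 difference of 0.54 ± 0.15 (SE) had a limma adjusted p of 0.0991, and its partner Rpl11 had a log2 difference of 0.030. Exons of Snord21 and Fam69a overlap Rpl5.

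The acetyltransferase Kat5 had a log2 difference of −0.25, the DNA break protein Trp53bp1 one of 0.21 and the ubiquitin ligase Cop1 one of 0.20, with limma adjusted p-values from 0.544 to 0.583. Exons on the opposite strand overlap Kat5 (Rnaseh2c) and Trp53bp1 (Tubgcp4). Mdm4, the relative of Mdm2 that also binds p53, had 675 normalised counts on average in APOE2 and 642 in APOE3, with a limma adjusted p of 0.804. Trp73, of the p53 family, had 1 read in all 13 libraries. The listed symbols Trp63, Cdkn2a and Trp53rk were not found among the genes of the deposited table, so they were not analysed.

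The third list held 15 cell cycle genes that p53 lowers through p21. All 15 passed the filter, 0 had a limma adjusted p-value under 0.05 and 3 an unadjusted one, against 14.2% of all genes. The log2 difference was above 0 for 11 of the 15, with a median of 0.14. Cdk1, the kinase that drives entry into mitosis, averaged 5431 ± 603 normalised counts in the 8 APOE2 libraries and 4033 ± 1352 in the 5 APOE3 libraries (SD), a log2 difference of 0.49 with a limma adjusted p of 0.147. The mitotic kinesin Kif20a had a log2 difference of 0.40 (limma adjusted p = 0.277) and the mitotic kinase Aurkb one of 0.43 (0.541). APOE3 replicate 2 was the lowest library for Cdk1, at 2270 normalised counts, and its Cdkn1a of 3478 was the third highest. APOE3 replicates 4 and 1, with Cdkn1a of 5469 and 3488, had the highest Cdk1 values of the APOE3 group (5035 and 5542). Whether Cdk1 followed Cdkn1a across libraries was not tested. Exons of Cdc23 overlap Kif20a on the opposite strand. The proliferation marker Mki67 had a log2 difference of −0.10, and E2f1, Plk1 and Top2a had values between −0.011 and 0.017.

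**Figure D5:**
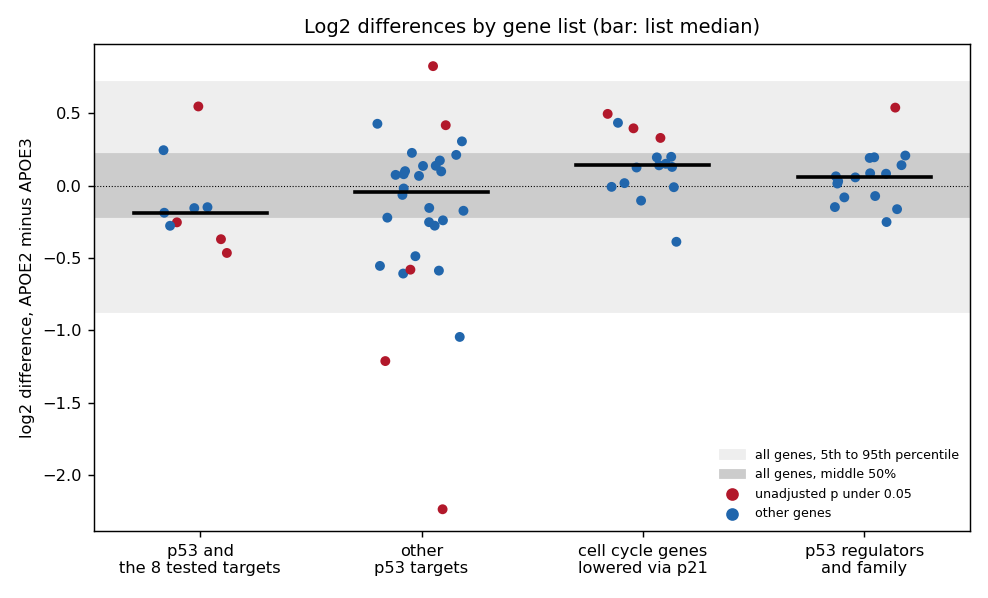
Log2 difference (APOE2 minus APOE3, vertical axis) of each tested gene in the 4 lists, red where the unadjusted limma p was under 0.05, with the list median as a bar over the grey bands of all 12403 genes tested. The medians are −0.19, −0.042, 0.14 and 0.060 from left to right, and 0 genes of the 4 lists passed the adjusted threshold.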

How the data were processed

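The authors deposited 1 table of gene counts divided by a size factor per library, a signal that is never negative. STAR 2.6.0, featureCounts, DESeq2 1.28.1 and the build mm10 are named in the submitters' processing notes, without roles. QuantSeq FWD kits, which read transcripts next to the poly(A) tail, were used per the labels' protocols. Of the values above 0, 100% were whole multiples of 1 step per library (tolerance 0.01), so whole reads were recovered for edgeR and DESeq2. Symbols came from GENCODE M21 (GRCm38), for 22649 of 22656 identifiers, and promoter sequences from RefSeq (GRCm38.p6).

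Normalised counts were tested as log2(value + 1) with limma 3.58.1 in R 4.3.3, with a variance trend, two-sided, APOE2 minus APOE3. Genes with a mean of at least 10 entered (12403), with Benjamini-Hochberg adjustment over all of them. The scripts were tested on simulated data. Alternatives were pseudocounts of 0.5 and 5, no filter, a minimum mean of 50, equal totals, TMM, limma without trend or with array weights, edgeR 4.0.16, DESeq2 1.42.0, each library left out, and the replicate number as a block. Pair correlations used 100000 permutations within genotype. Named were the 10 genes and, from each further list, the 4 genes with the smallest p-value, of which 1 is not reported here (Sesn2, Rpl11, Mdm4, Mki67, E2f1, Plk1, Top2a and genes at the filter were added after their values were seen), beside the 5 genes most like the mean. Members and lists were chosen with earlier results of these data known.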

Additional observations from a re-analysis of the deposited data

Results flagged for a closer look

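In 44 screens (22 genes in each of the 2 groups), 2 values stood apart from their group by an unusually large share of its range, where chance gives about 2.2. Both were in APOE2 replicate 3. Ccng1 had 1015 normalised counts there, while the next APOE2 library had 1346, a gap of 0.603 of the range. Trp53bp1 had 933.1 normalised counts there, while the next had 658.3, a gap of 0.612 of the range. APOE2 replicate 3 also had the lowest epithelial and fibroblast marker sums of the 13 libraries, and its part in these values was not tested.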

How the results depend on the processing

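For the 9 tested members, all 216 values under 24 alternatives kept their direction, and 0 of the 9 was called in any. Eda2r turned from −0.14 to 0.029 with a pseudocount of 5, and ranged from −0.65 to 0.39 without 1 library. Of all genes 98 were called, and 9 with no filter, 0 with limma without the trend (1599 at an unadjusted p-value under 0.05), 311 with DESeq2, 43 with the replicate block, and from 9 (without APOE3 replicate 3) to 228 (without APOE3 replicate 1) without 1 library. Of the other p53 targets, 2 were called by DESeq2 (Dram1 and Sfn) and 1 with the replicate block (Dram1), and 0 without any 1 library. Without APOE3 replicate 1, 1 regulator (Rpl5) and 2 cell cycle genes (Cdk1 and Kif20a) were called, all higher in APOE2, and 0 without any other library. The causes were not tested. Libraries with the same replicate number showed no likeness across the groups (correlations from −0.063 to 0.014 over 5 numbers). With so few numbers, these values do not settle whether the numbers pair the libraries. The block changed no other call of the lists. For Eda2r, at most 36 reads per library limit what could be seen.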
